A study of Rattus norvegicus with 8 samples.

Results

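Matricellular proteins are secreted into the extracellular matrix, where they act on cells and on growth factors more than they bear load. The genes described are Thbs1, Thbs2, Tnc, Postn, Sparc, Vcan and Ccn2, together with Fn1, which encodes fibronectin, a structural glycoprotein on which other matrix proteins assemble. They were chosen by name, and every probe set whose only gene symbol in the platform annotation is one of the 8 names was taken. That gave 12 probe sets of 31042 tested and 7 of the 8 genes. The annotation used here pairs no probe set with Thbs1 (thrombospondin 1) alone, so Thbs1 was not analysed here.

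The 8 arrays come from cirrhotic livers of male Wistar rats, 1 liver sample per array by the labels. Cirrhosis, a late stage of scarring, was induced in both groups with inhaled CCl4 (carbon tetrachloride, a liver toxin), and phenobarbital, which induces drug-metabolizing enzymes, was in the drinking water of both groups at 0.3 g/L. The control group is labelled vehicle in 4 samples and called untreated in the series description. The other 4 are labelled as antiangiogenic treatment, meant to limit new vessels. The sources used here do not give the compound, its dose, how long it was given or the rats' age. No array of healthy liver was analysed here, so no value below is a difference from normal liver.

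In injured liver, hepatic stellate cells and portal fibroblasts turn into myofibroblasts, which lay down collagen together with several of these proteins. Transforming growth factor beta (TGF-beta) is a main inducer of Ccn2, Postn, Tnc and cellular fibronectin. Hepatocytes secrete another form, plasma fibronectin, so Fn1 RNA in whole liver is not a measure of scar cells alone. In bulk tissue, fewer cells of a type and less RNA per cell cannot be told apart.

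Each value is a probe set's summary by the RMA method (robust multi-array average), in log2 units. SDs after ± are over 4 arrays, and each difference is the treated mean minus the vehicle mean in the same units. Levels of different probe sets are not comparable. Array medians lay between 5.16 and 5.30, and the 25th percentiles between 3.74 and 3.91. Hepatocyte markers, which define liver tissue, were at the top of the range, with Alb (albumin) the brightest probe set at a mean of 14.83. Vehicle 4 and treated 3 correlated at r = 0.996 over all probe sets, against 0.956 to 0.988 in the 27 other pairs. The labels give these near-identical arrays as livers of opposite groups, and whether they are the same liver hybridized or deposited more than once cannot be told from the sources used here. The n of 4, the SDs and the p-values over 8 arrays take them as separate livers. Results that rest on them are therefore also given on the other 6 arrays, for single members and for each gene list. Bacterial spike-in controls parted the arrays into 3 sets, namely vehicle 1 with treated 1, vehicle 2 and 3 with treated 2 and 4, and the near-identical pair.

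All 12 member probe sets had a lower mean in treated than in vehicle livers (with median centring of the arrays, Fn1 and 1 of the 5 Vcan probe sets had a higher one), and none passed the test (limma, 0 at an adjusted p under 0.05; 0% of all probe sets, smallest adjusted p 0.979). Of all probe sets, 45.3% had a lower mean. The largest differences were in Sparc, 2.12-fold lower, Ccn2, 1.82-fold lower, and Postn, 1.61-fold lower, each at its brightest probe set. Fn1 differed least of the 7 genes, by 1.03-fold. At an unadjusted p under 0.05, 3 of the 12 stood lower, both probe sets of Sparc and that of Postn. Of all probe sets 3.93% met that p, 2.04% with a lower mean. The 3 were 1 (Sparc 1367563_at) with a block for the spike-in sets, beside 4.49% of all probe sets. They were 2 with the replicate block (2.53%), median centring (4.38%) or quantile normalization (4.04%), and 1 with ordinary variances (3.12%). With trended robust variances they were 4 (3.84%), and with a mean log2 filter of 6 they were 2 (3.74%). When single arrays were left out they were 1 to 3, beside 1.73% to 9.29% (1 without treated 1, treated 2, vehicle 1 or vehicle 3). The groups overlapped at every member probe set (0 without overlap, against 1.67% of all probe sets, 0.58% with every treated array below every vehicle array).

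At the probe set with the highest mean, 7 of 7 genes had a lower mean, beside 48.4% of 14217 genes. Their median difference was −0.30, beside 0.01 over all genes. On the 6 arrays without the near-identical pair the median was −0.42. There, 4 probe sets had an unadjusted p under 0.05 (3.67% of all probe sets, lower in treated), 2 did not overlap (4.41%), and 0 passed the adjusted threshold (0.00966%).

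**Figure D1:**
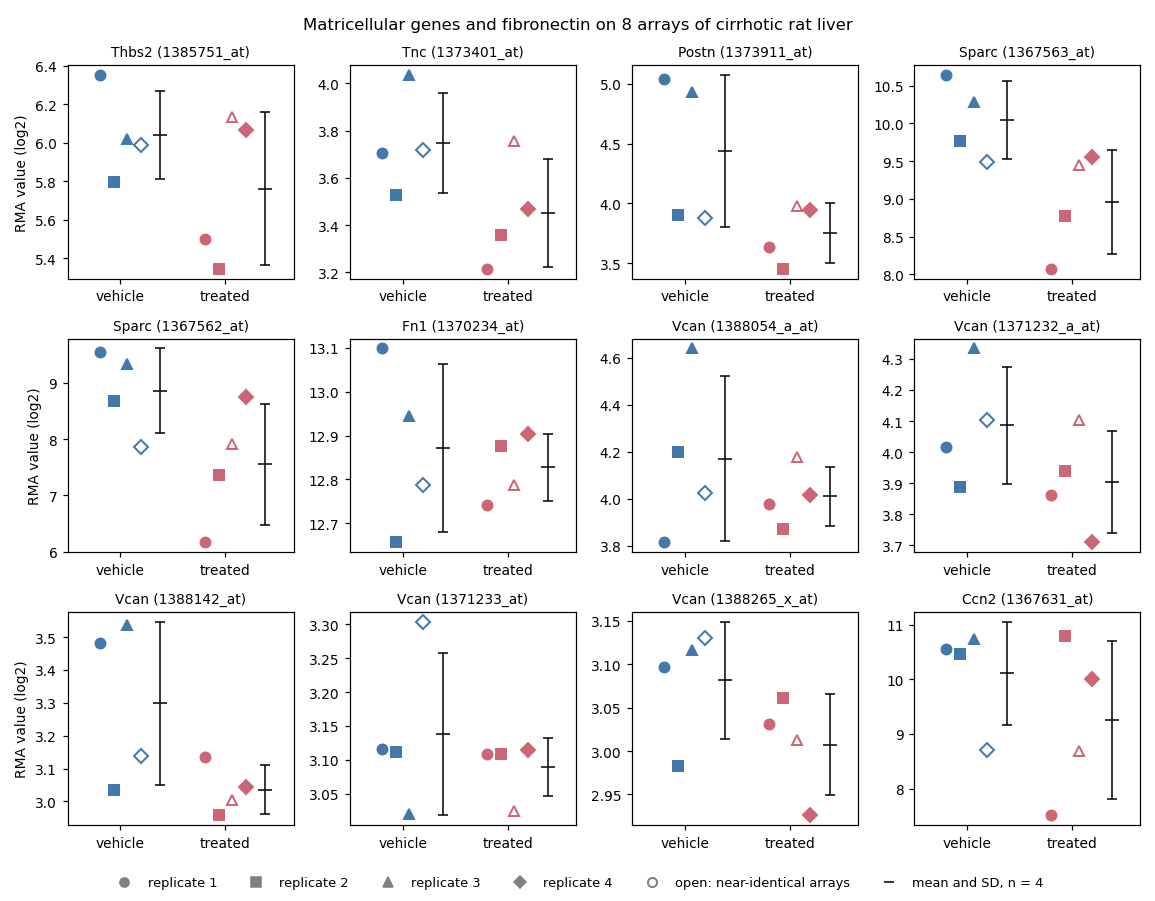
RMA values (log2) of the 12 member probe sets on each array, vehicle in blue and treated in red, with the mean and SD of 4 arrays; each panel has its own vertical scale. Open symbols mark the near-identical arrays vehicle 4 and treated 3. Every panel shows overlap, and the Fn1 panel spans 12.66 to 13.10 whereas the Ccn2 panel spans 7.51 to 10.79.

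Promoter sequences (RefSeq, build GRCr8, 250 bases before to 50 after the start) matched 6 of the 8 names; Thbs2 and Fn1 had no entry. The promoters of Sparc, Postn and Ccn2 are shown because these members had the largest differences while Ccn2 followed another order of arrays than the other 2. Capitals mark the letters GGAATG, a core bound by TEAD factors, which reads CATTCC where it lies on the reverse strand. They also mark TATAAA, the letters bound by the TATA-binding protein, again searched on both strands. No copies of these motifs overlap in the printed windows.
Ccn2, chr1:22624565-22624864, minus strand: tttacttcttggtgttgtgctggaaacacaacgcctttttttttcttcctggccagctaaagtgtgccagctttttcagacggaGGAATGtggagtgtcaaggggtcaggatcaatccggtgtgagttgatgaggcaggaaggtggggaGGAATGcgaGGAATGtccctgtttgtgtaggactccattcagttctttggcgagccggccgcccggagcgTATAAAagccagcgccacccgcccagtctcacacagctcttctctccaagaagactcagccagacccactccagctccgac
Sparc, chr10:40038767-40039066, minus strand: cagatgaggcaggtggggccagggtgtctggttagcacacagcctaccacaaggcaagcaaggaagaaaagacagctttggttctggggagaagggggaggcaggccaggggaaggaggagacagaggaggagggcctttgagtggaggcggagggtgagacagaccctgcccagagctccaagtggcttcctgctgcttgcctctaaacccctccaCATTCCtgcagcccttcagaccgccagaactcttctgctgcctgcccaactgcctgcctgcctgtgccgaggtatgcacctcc
Postn, chr2:140677811-140678110, plus strand: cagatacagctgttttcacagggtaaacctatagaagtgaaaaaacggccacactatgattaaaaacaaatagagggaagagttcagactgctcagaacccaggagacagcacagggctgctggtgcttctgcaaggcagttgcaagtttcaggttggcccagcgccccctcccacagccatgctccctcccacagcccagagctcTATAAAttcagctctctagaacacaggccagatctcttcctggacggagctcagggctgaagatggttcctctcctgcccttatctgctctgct

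The Ccn2 window holds 3 copies of GGAATG, which start 166, 101 and 92 bases before the transcription start, and a TATAAA at 31 bases. At least 3 copies stand in 0.0956% of the 33469 promoter windows of 300 bases, and at least 1 copy in 14.2%. The Sparc window holds 1 copy on the reverse strand and no TATAAA. The Postn window has no GGAATG and a TATAAA 44 bases before the start; TATAAA stands in 14.2% of windows. CAGACA or its reverse TGTCTG, letters of SMAD binding sites, was found in Sparc (1) and Tnc (1) but not in the Ccn2, Postn, Thbs1 and Vcan windows, and stands in 21.1% of all windows. Only these exact letters were searched, so a window without them may still hold another form of SMAD site. The shorter CAGAC stands in each of the printed Ccn2, Sparc and Postn windows, in Ccn2 also just before its first GGAATG. Its share of all windows was not counted. These matches are letters in a window, and binding was not measured.

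Sparc encodes a collagen-binding glycoprotein (osteonectin) of remodelling matrix, and was read by a pair of probe sets. At the brighter one (1367563_at), the vehicle arrays 1 to 4 read 10.64, 9.76, 10.28 and 9.49, and the treated arrays 8.07, 8.77, 9.45 and 9.55. Treated 1 and 2 were the lowest arrays, and 3 of the 4 treated arrays lay below every vehicle array. The means were 10.04 ± 0.51 and 8.96 ± 0.69, a difference of −1.08 (SE 0.36, 95% interval −1.90 to −0.27, unadjusted limma p 0.0148, adjusted p = 0.979).

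At the second Sparc probe set (1367562_at), vehicle livers read 9.55, 8.68, 9.33 and 7.87, and treated livers 6.17, 7.37, 7.91 and 8.75. Vehicle 4 was low and treated 4 high there, so the groups overlapped further. The difference was −1.31 (95% interval −2.54 to −0.07), and the probe sets followed each other across arrays (r = 0.97, rho 0.95, 8 arrays). Without the near-identical pair the differences were −1.43 (−2.38 to −0.49) and −1.76 (−3.23 to −0.29), and the brighter probe set no longer overlapped. When single arrays were left out, the brighter probe set differed by −1.28 to −0.79 and the second by −1.71 to −0.85, both least without treated 1.

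Postn encodes periostin, a matrix protein of fibroblasts that promotes collagen assembly. Its probe set (1373911_at) was dim, at the 31.2nd percentile of mean level. Vehicle livers read 5.04, 3.90, 4.94 and 3.88, and treated livers 3.63, 3.45, 3.98 and 3.94. Vehicle 1 and 3 stood about 1 log2 unit above every other array, while vehicle 2 and 4 lay within the treated range. The means were 4.44 ± 0.63 and 3.75 ± 0.25, a difference of −0.69 (−1.35 to −0.03, unadjusted limma p 0.0427, adjusted p = 0.979). It was −0.95 (−1.71 to −0.19) on 6 arrays and −0.49 without vehicle 1.

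Ccn2 encodes connective tissue growth factor, a secreted matricellular protein induced by TGF-beta and by the YAP and TEAD factors of the Hippo pathway. Vehicle livers read 10.55, 10.46, 10.73 and 8.70, and treated livers 7.51, 10.79, 8.69 and 10.00. The highest array of all was treated 2, and the 3 low arrays were treated 1 and the near-identical pair. The means of 10.11 ± 0.95 and 9.25 ± 1.45 differed by −0.86 (−2.47 to 0.75, adjusted p = 0.979, limma). This difference was −1.15 (−2.99 to 0.69) on 6 arrays, −0.28 without treated 1, −1.38 without treated 2 and −1.33 without vehicle 4. Its pooled SD within groups, 1.22, was at the 98.8th percentile of probe sets with a mean of at least 6.

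Fn1 (1370234_at) was among the brightest probe sets of these livers, at the 99.6th percentile. Vehicle livers read 13.10, 12.66, 12.94 and 12.79, and treated livers 12.74, 12.88, 12.79 and 12.90. All 8 arrays lay within 0.44 log2 units, with both extremes in the vehicle group. The means were 12.87 ± 0.19 and 12.83 ± 0.08, and the interval of the difference (−0.32 to 0.23) excludes a change of 2-fold in either direction on the array's scale. On 6 arrays, without the near-identical pair, the difference was −0.06 (−0.42 to 0.30). Its pooled SD, 0.146, was at the 9.8th percentile of probe sets with a mean of at least 6. The direction turned with median centring of the arrays (0.0092) and without vehicle 1 (0.031). The single probe set does not part plasma from cellular fibronectin.

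Thbs2 encodes thrombospondin 2, a matricellular protein that inhibits angiogenesis and binds metalloproteinases. Its probe set (1385751_at) read 6.35, 5.80, 6.02 and 5.99 in vehicle livers and 5.50, 5.34, 6.13 and 6.06 in treated livers. Treated 1 and 2 were below every vehicle array, and treated 3 and 4 were above 3 of the 4. The means of 6.04 ± 0.23 and 5.76 ± 0.40 differed by −0.28 (−0.75 to 0.19, adjusted p = 0.979, limma). The difference was −0.42 (−0.98 to 0.14) on 6 arrays, −0.14 without treated 2 and −0.17 without vehicle 1.

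Tnc encodes tenascin C, a large glycoprotein that appears at sites of injury. Its probe set (1373401_at) lay at the 18.3rd percentile, with a mean below the 25th percentile of every array. Vehicle livers read 3.70, 3.53, 4.04 and 3.72, and treated livers 3.21, 3.36, 3.75 and 3.47. Of the treated arrays, only treated 3 was not below all vehicle arrays. The difference was −0.30 (−0.64 to 0.05), and −0.41 (−0.80 to −0.01) on 6 arrays, where the groups did not overlap.

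Vcan encodes versican, a chondroitin sulfate proteoglycan that binds hyaluronan in provisional matrix. Its 5 probe sets were all dim, with means of 3.04 to 4.09. The brightest (1388054_a_at, a design in which all probes belong to the same gene) read 3.82, 4.20, 4.64 and 4.02 in vehicle and 3.98, 3.87, 4.18 and 4.02 in treated livers. Only vehicle 3 stood clear of the rest, and without it the difference of −0.16 (−0.55 to 0.24) was −0.0026. The other 4 probe sets differed by −0.05 to −0.26, and the sign of 1371233_at turned on 6 arrays (0.028). No difference in versican RNA was detected, and whether such dim probe sets could show one was not tested.

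**Figure D2:**
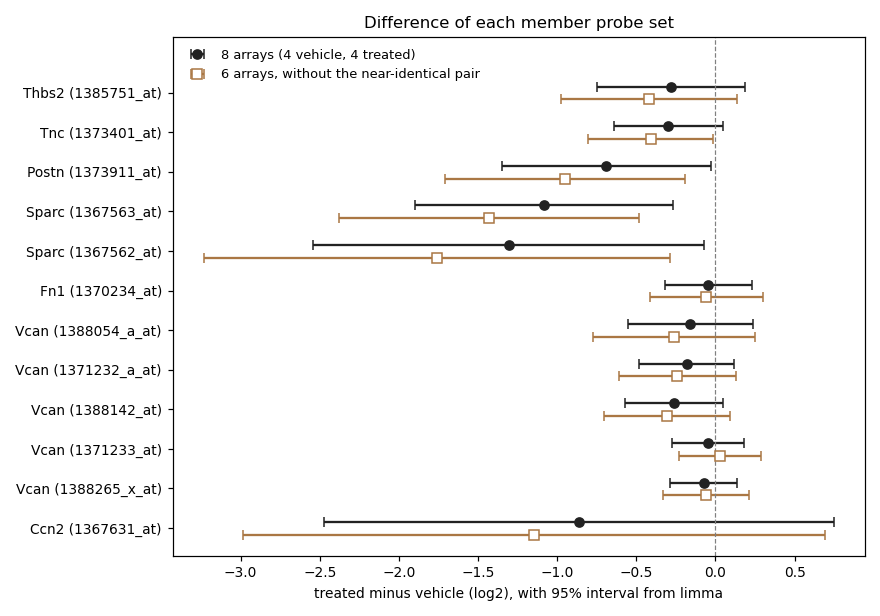
Differences (treated minus vehicle, log2) of the 12 probe sets with 95% intervals from limma, over 8 arrays (filled) and over 6 arrays without the near-identical pair (open). The intervals of Sparc and Postn lie below 0 in both fits; that of Ccn2 runs from −2.47 to 0.75, and those of Fn1 and Vcan include 0.

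The members did not share 1 order of arrays. Sparc and Postn followed each other most closely among the pairs of Sparc with another member (r = 0.86, rho 0.81, 8 arrays). Thbs2 and Tnc followed Sparc at r = 0.82 and 0.79, with lower rank correlations (rho 0.62 and 0.55). Sparc and Postn also followed Col1a1, the main fibrillar collagen chain of scar (r = 0.90 and 0.93). Ccn2 followed Sparc at r = 0.64 (rho 0.48) and Thbs2 at 0.15 (rho −0.10), and Vcan and Fn1 were at −0.15. The arrays share the near-identical pair, and over the other 6 r was 0.87 for Sparc with Postn, 0.72 for Sparc with Ccn2 and 0.36 for Thbs2 with Ccn2. These correlations describe 8 arrays and were not tested.

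**Figure D3:**
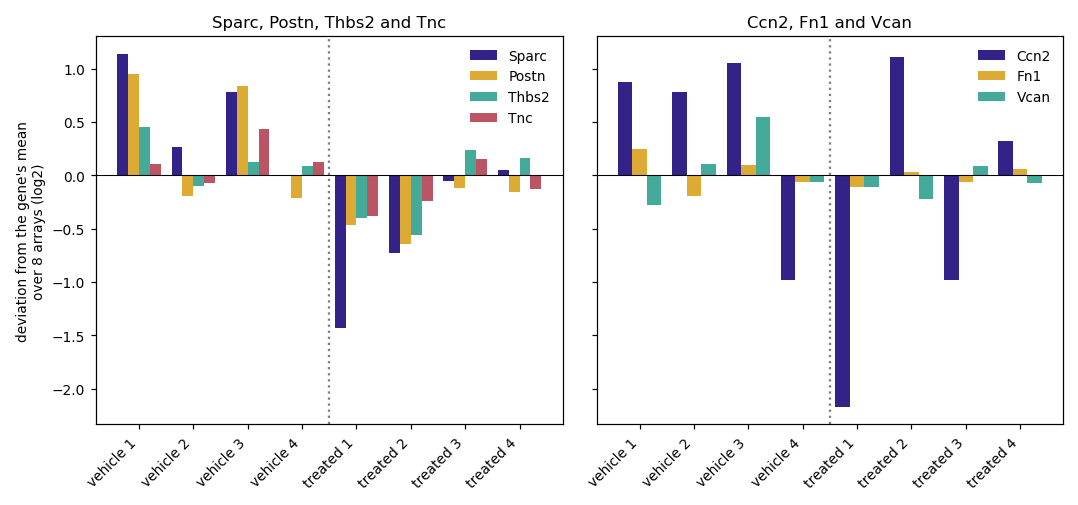
Deviation of each member gene from its own mean over the 8 arrays (log2), at the probe set with the highest mean; the dotted line parts vehicle from treated arrays. Sparc, Postn, Thbs2 and Tnc (left) are all below their means on treated 1 and treated 2, whereas Ccn2 (right) is lowest on treated 1 and highest on treated 2.

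Within the sets of arrays alike in spike-in controls, the differences were unequal. For Sparc (1367563_at) treated minus vehicle was −2.57 in the first set, −0.86 in the second and −0.04 in the near-identical pair. Postn gave −1.41, −0.72 and 0.10. Ccn2 gave −3.04, −0.20 and −0.01, so nearly all of its difference came from vehicle 1 against treated 1. Thbs2 gave −0.85, −0.20 and 0.15, and Fn1 −0.36, 0.09 and 0.00. A block for these sets leaves each difference at its value by construction and called 0 member probe sets. The unadjusted limma p was 0.0314 for Sparc 1367563_at with this block, 0.0555 for Sparc 1367562_at and 0.0626 for Postn.

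The genes with the array pattern most like each member, among 8492 other genes with a mean of at least 6, are given by Pearson's r over 8 arrays. For Sparc these were Cst3 (cystatin C, a secreted protease inhibitor) at 0.991 and Ramp2 (a receptor partner in adrenomedullin signalling, abundant in endothelium) at 0.990. For Postn they were Fbn1 (fibrillin 1, of microfibrils) at 0.969 and Zfp939 at 0.954. For Ccn2 they were Enc1 at 0.983 and Prkaa1 (a catalytic subunit of AMP-activated kinase) at 0.983. Fn1 was nearest to Eif4e (the cap-binding translation factor) at 0.994 and Nup93 (a nuclear pore protein) at 0.976. Thbs2 was nearest to Fabp5 (a fatty acid binding protein) and Itgb3bp, Tnc to Map1b and Oasl, and Vcan to Tmem17 and Ptk2 (focal adhesion kinase), at r from 0.945 upwards. The mean of the standardised member profiles was nearest to Mfge8 (a secreted bridge to integrins) at 0.996, followed by Tbpl1, Appl1, Prkch, Slain2 and Apaf1 at 0.962 to 0.974. The best of 8492 candidates over 8 arrays is high by selection.

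Other matricellular genes had lower means at 12 of 17 measured genes, with a median difference of −0.12; 0 passed the adjusted test, and at an unadjusted p under 0.05 3 were lower and 1 higher (2.8% and 1.95% of all genes). Thbs4 (thrombospondin 4) read 7.58, 7.18, 6.82 and 4.54 on vehicle arrays 1 to 4, and 4.72, 4.25, 4.54 and 5.77 on the treated arrays. The means differed by −1.71 (−3.12 to −0.30). Vehicle 1 to 3 were above every treated array, and vehicle 4 was among the lowest. Ccn1, which like Ccn2 is a target of YAP and TEAD, differed by −0.75 (−1.49 to −0.01), and Ccn3, of the same family, by −0.46 (−0.81 to −0.12). Smoc1, a calcium-binding relative of Sparc, had the opposite sign, 0.75 (0.10 to 1.40) and 0.80 at its second probe set. All 4 had an adjusted limma p of 0.979. On 6 arrays the median was −0.14, and 4 were lower and 1 higher at an unadjusted p under 0.05 (5.24% and 3.32% of all genes on 6 arrays), with 0 past the adjusted test (0.0211%). Thbs4 differed there by −2.28 (−3.23 to −1.32, unadjusted limma p 0.000842, adjusted p = 0.390), Ccn1 by −0.94, Ccn3 by −0.63 and Smoc1 by 0.98, and each of the 4 was without overlap. These genes were named for their small p. Of all probe sets on 6 arrays, 4.41% had every treated array below every vehicle array. The share in the higher direction was not counted.

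Cell surface receptors of these proteins had lower means at 13 of 17 genes (median −0.24, 0 passed the adjusted test, 2 lower at an unadjusted p under 0.05). The share of all genes lower at that p was 2.8%. Cd44, the hyaluronan receptor, had means of 7.73 ± 0.47 and 6.76 ± 0.76, and a difference of −0.97 (interval −1.82 to −0.12). Cd47, the thrombospondin receptor, differed by −0.54 (−1.03 to −0.05), and by −0.33 at its second probe set. Itgb1, the beta 1 integrin chain that pairs in fibronectin receptors, differed by −0.49 (−0.99 to 0.00), and Stab1, a scavenger receptor that takes up Sparc, by −1.23 (−2.49 to 0.04). The adjusted limma p was 0.979 for each. The second probe sets of Cd44 and Itgb1 gave −1.06 and −0.44. Cd36, Sdc2, Lrp1 and Sdc1 had higher means, by 0.41, 0.40, 0.34 and 0.14 at their brightest probe sets, and each of these intervals included 0. The other probe sets of Sdc2 gave 0.486 (unadjusted limma p 0.0290) and 0.494 (unadjusted limma p 0.0716). Those of Sdc1 and Lrp1 gave 0.52 and 0.12. On 6 arrays the list median was −0.27, and 4 genes were lower at an unadjusted p under 0.05, beside 5.24% of all genes. Stab1, a marker of liver sinusoidal endothelium and of some macrophages, had the smallest p there, with −1.57 (−2.08 to −1.07, unadjusted limma p 0.000181, adjusted p = 0.225) and no overlap. Cd44 gave −1.26 (−2.31 to −0.22), Cd47 −0.67 and Itgb1 −0.62.

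In the hyaluronan and versican network 9 of 14 genes had lower means (median −0.14), and 0 had an unadjusted p under 0.05 in either direction. The smallest p-values were those of Chpf and Chsy1 (chondroitin chain synthesis, −0.52 and −0.50), Adamts5 (a versican-cleaving protease, −0.85, and −0.10 at its dim second probe set) and Fbln1 (a versican partner, −0.56, and −0.12 at its second probe set). Each interval over 8 arrays included 0. On 6 arrays the median was −0.23, and Adamts5, at −0.94 (−1.82 to −0.07) and without overlap, was the 1 gene with an unadjusted p under 0.05. Lower at that p on 6 arrays were 5.24% of all genes.

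Among TGF-beta and YAP genes 8 of 13 had lower means (median −0.08; 0 passed the adjusted test, 2 lower at an unadjusted p under 0.05). Beside this, 2.8% of all genes were lower at that p. Tgfb1 averaged 6.26 ± 0.30 and 5.59 ± 0.44 (difference −0.67, −1.20 to −0.15), and Tgfb3 differed by −0.88 (−2.003 to 0.24). Tead4, a DNA partner of YAP, differed by −0.36 (−0.64 to −0.08), and its other probe sets by −0.11 and 0.15. Amotl2, a YAP target, had the opposite sign to Ccn1 and Ccn2, 0.37 (−0.16 to 0.91). Of the other YAP targets in the list, Ankrd1 differed by −0.05 (0.12 at its second probe set) and Lats2 by −0.27. Every interval of these targets but that of Ccn1 included 0, and differences between genes were not tested. On 6 arrays 7 of the 13 genes had lower means (median −0.10, 3 lower at an unadjusted p under 0.05), with Tgfb1 at −0.74 (−1.37 to −0.11), Tead4 at −0.40 (−0.66 to −0.14) and Tgfb3 at −1.15 (−2.30 to −0.01). There, 5.24% of all genes were lower at that p.

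Collagen partners and assembly genes had lower means at 10 of 10 (median −0.82; 0 passed the adjusted test, 2 lower at an unadjusted p under 0.05). The share of all genes lower at that p was 2.8%, and 5.24% on 6 arrays. Plod2, a collagen lysyl hydroxylase, differed by −1.32 (−2.59 to −0.04), Fbn1 by −0.80 (−1.55 to −0.05), and the collagen I chains Col1a1 and Col1a2 by −1.28 (−2.60 to 0.04) and −1.09 (−2.22 to 0.04). The second probe sets of Fbn1, Col1a1 and Col1a2 gave −0.80, −1.08 and −1.32. On 6 arrays the median was −1.07, and 8 of the 10 were lower at an unadjusted p under 0.05, with Plod2 at −1.74 (−3.25 to −0.23) and Col1a1 at −1.69 (−3.26 to −0.13). The list means ran from 8.32 to 9.82 on vehicle and from 7.98 to 9.28 on treated arrays.

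**Figure D4:**
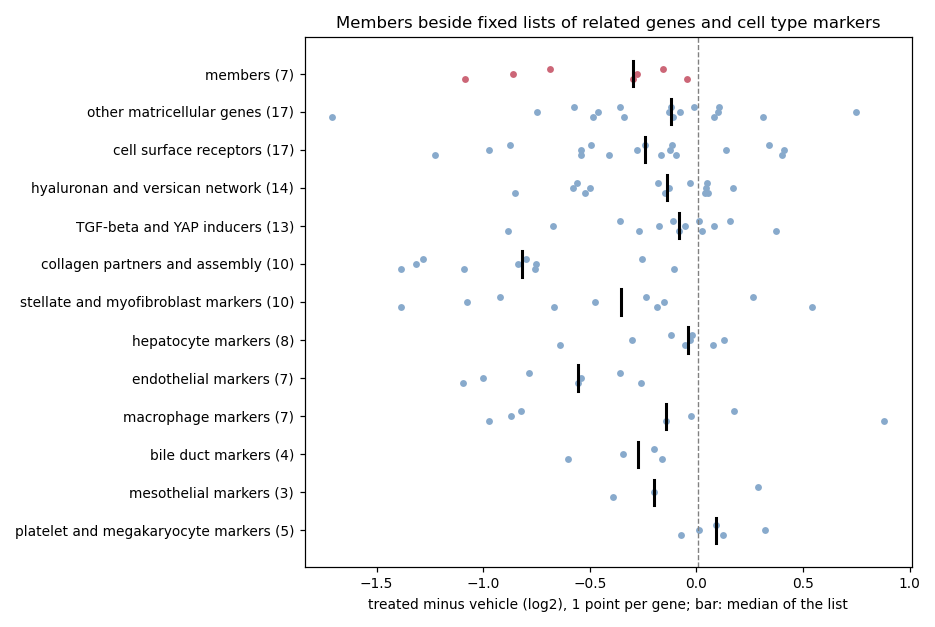
Treated minus vehicle differences (log2) of the 7 measured members and of 12 fixed lists, 1 point per gene, with the number of measured genes in parentheses, a black bar at each list's median and a dashed line at the median of all genes (0.01). The collagen partners have the lowest median, −0.82, and platelet markers the highest, 0.09.

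Markers of several cell types also had lower means. Stellate cell and myofibroblast markers had lower means at 8 of 10 (median −0.36), with list means of 7.01 to 7.67 on vehicle and 6.64 to 7.36 on treated arrays. Acta2, the actin of myofibroblasts, differed by −0.67 (−1.15 to −0.18) and Tagln, a contractile protein, by −1.08 (−1.97 to −0.18). Lum (lumican, a matrix proteoglycan) gave −1.38 (−3.14 to 0.37), and Lrat, the retinol esterase of quiescent stellate cells, 0.26 (−0.04 to 0.57). Endothelial markers were lower at 7 of 7 (median −0.56), with means of 6.87 to 7.79 on vehicle and 6.84 to 6.96 on treated arrays. Emcn, Stab2, Tek and Tie1, endothelial surface proteins, differed by −1.003 (−1.73 to −0.27), −1.09 (−2.12 to −0.07), −0.54 (−1.08 to −0.01) and −0.56 (−1.19 to 0.08). At an unadjusted p under 0.05, 2 of 10 stellate and 3 of 7 endothelial markers were lower, beside 2 of the 7 member genes and 2.8% of all genes. On 6 arrays the medians were −0.44 and −0.74, with 2 stellate markers lower and 2 higher at that p, and 5 of 7 endothelial markers lower, beside 3 of the 7 member genes. The shares of all genes there were 5.24% lower and 3.32% higher. Emcn had the smallest p of these markers, at −1.22 (−1.65 to −0.80, unadjusted limma p 0.000292, adjusted p = 0.258).

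Macrophage markers were lower at 5 of 7 (median −0.14), with list means of 8.66 to 9.25 on vehicle and 8.05 to 9.20 on treated arrays. Adgre1, Lyz2 and Csf1r differed by −0.97, −0.87 and −0.82, and Cd14 by 0.88. On 6 arrays the first 3 differed by −1.34, −1.17 and −1.11 and were the 3 macrophage markers with an unadjusted p under 0.05 (median −0.18). Lower at that p there were 5.24% of all genes. Bile duct markers were lower at 4 of 4 (median −0.27, list means of 5.48 to 6.76 on vehicle and 5.51 to 6.54 on treated arrays), with Cftr, Krt19, Epcam and Krt7 at −0.60, −0.34, −0.20 and −0.16. Mesothelial markers were lower at 2 of 3 (median −0.20, 5.50 to 6.42 and 5.43 to 7.07), with Lrrn4, Wt1 and Msln at 0.29, −0.20 and −0.39.

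Platelets carry thrombospondin 1 and Sparc in their granules. Their markers were lower at 1 of 5 (median 0.09, list means of 5.43 to 5.53 on vehicle and 5.51 to 5.66 on treated arrays), with Itga2b, Ppbp, Gp5 and Pf4 at 0.32, 0.12, 0.09 and −0.07. Hepatocyte markers were lower at 6 of 8 (median −0.04, 13.41 to 13.61 and 13.16 to 13.58), with Apoa1, Cps1, Cyp2e1 and Ttr at −0.64, −0.12, 0.13 and 0.08. At an unadjusted p under 0.05 there were 0 macrophage, bile duct, mesothelial, platelet and hepatocyte markers over 8 arrays. On 6 arrays Cftr (−0.84) was the 1 bile duct marker, and there were 0 mesothelial, platelet and hepatocyte markers, with medians of −0.35, −0.28, 0.11 and −0.05 in the order of the 4 lists. The shares of all genes at that p were 5.24% lower and 3.32% higher on 6 arrays. In these 7 marker lists 0 genes passed the adjusted test over 8 or 6 arrays, and the part of cell content in the members' differences was not tested. The log2 difference between the 3′ and 5′ Gapdh probe sets, a measure of RNA integrity, was 0.186 to 0.414 on vehicle and 0.133 to 0.404 on treated arrays. For beta-actin it was larger on every array, 1.70 to 1.91 on vehicle and 1.77 to 1.88 on treated arrays.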

How the data were processed

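Frozen liver was, per the labels' protocols, extracted with Trizol, and its RNA was purified on RNeasy columns and transcribed from a T7-oligo(dT) primer into biotinylated cRNA for Affymetrix Rat2302 arrays, so signal favours the 3′ end of transcripts. Per the submitters' processing notes, affy and RMA were used, with versions and settings not given in the sources used here. The deposited values are RMA summaries on the log2 scale, as their range shows, and RMA understates differences of dim probe sets. Array values carry no molecule counts, so the number of arrays limits the precision. The labels name 1 liver per array but not separate animals beyond the series description of 4 rats per group. The p-values set each group difference against the spread between these samples, taken as separate livers.

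Groups and replicate numbers came from sample titles. The 57 control probe sets were left out, and 31042 were fitted with limma 3.58.1 (R 4.3.3; lmFit and eBayes, 4 against 4 arrays, no covariate), with Benjamini-Hochberg adjustment over all of them and a threshold of 0.05. A gene was represented by the brightest (highest mean) of its single-symbol probe sets. Of the probe sets, 20826 had 1 symbol, 436 several and 9780 none listed; 0 symbols needed updating through the RefSeq table. Spike-in sets came from average-linkage clustering of the BioB, BioC, BioDn and CreX controls into 3. The procedure was also run on simulated independent arrays. These held no near-identical pair, so that run does not show how the procedure behaves with one.

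Members and lists were chosen with earlier results of these data known. Every member probe set is named, with up to 4 genes of each other list by smallest unadjusted p, the 2 genes most like each member and the 6 most like their mean profile. The receptors with higher means and the YAP targets Ankrd1 and Lats2 are named besides. Alternatives were quantile normalization, median centring, a mean log2 filter of 6, trended robust and ordinary variances, replicate and spike-in blocks, leaving out arrays, and the mean over a gene's probe sets. No array column was left unused (0).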

Additional observations from a re-analysis of the deposited data

Results flagged for a closer look

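In each probe set and group of 4 arrays, the gap of the highest or lowest array to its nearest neighbour was set against the range of the group, and 2 of 24 such groups had a gap above Dixon's 95% critical value; chance gives about 1 in 20. Ccn2 (1367631_at) read 8.70 on vehicle 4, against 10.46 on the next vehicle array, a gap of 0.868 of the range. Vehicle 4 is one of the near-identical arrays, and its counterpart treated 3 read 8.69. Vcan (1371233_at) read 3.02 on treated 3, against 3.11 on the next treated array, a gap of 0.934 of a range of 0.09 log2 units at a level near the bottom of the arrays.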

How the results depend on the processing

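No member probe set passed an adjusted p of 0.05 in any of the 16 refits (limma, smallest adjusted p 0.447, for Sparc 1367563_at without vehicle 4), and 179 of 184 recomputed differences kept their sign. Refits with other variances, a block or the mean filter leave each difference at its value by construction. A sign could turn only in the other refits. The 5 that turned were near 0: Fn1 with median centring (0.0092) and without vehicle 1 (0.031; −0.116 to 0.031 over single arrays left out), and Vcan 1371233_at with median centring (0.0048), without both near-identical arrays (0.028) and without vehicle 4 (0.0068; −0.088 to 0.0068 over single arrays left out). Over all probe sets 0 were called, but 3 without both near-identical arrays, and 0 to 11 when 1 array was left out, the 11 without vehicle 4. The number of lower member probe sets was 12, 11 to 12 when 1 array was left out, and 4 of the 4 left with a mean log2 of at least 6. The median of the member genes, −0.30, was −0.40 to −0.22 when 1 array was left out. With the filter it was −0.86, which is the difference of Ccn2, since only Sparc, Ccn2 and Fn1 were left. Median centring added 0.05 to every difference. For replicate numbers 1 to 4, deviations from group means correlated at −0.11, 0.04, −0.12 and −0.62. No pairing by number was seen in these values, which cannot exclude one with 4 arrays a group. Vehicle 1 and treated 1 shared a spike-in set, as did vehicle 2 and treated 2. With the replicate block 0 probe sets and 0 members were called, and 785 had an unadjusted limma p under 0.05 against 1220 without it. This block leaves each difference at its value by construction, so the 12 lower members and their median of −0.30 could not change. Brightness limits Vcan, Tnc and Postn, and 4 arrays a group with a near-copy in each limit all members.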
